A study of Mus musculus with 23 samples.

Results

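B cells were followed by 9 marker genes in lung RNA-seq libraries of male Balb/c mice: Cd79a, Cd79b, Blk, Cd22, Ms4a1, Cr2, Fcer2a, Pax5 and Cxcr5. They were taken as the rows of the count file whose Ensembl gene ID carries one of these symbols in GENCODE mouse release M21. All 9 were found among the 41388 genes of the file, and all 9 passed the filter on low counts that left 17148 genes for testing. Levels are given as CPM, a gene's counts relative to the library's total, scaled by the TMM method, for each library.

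There were 23 libraries, 1 per mouse, from whole lung. Every mouse was exposed for 10 min on each of 3 days, either to clean air (air, n = 3) or to an aerosol of bacterial lipopolysaccharide at 0.21 mg/ml (LPS, n = 5). A further 3 groups of 5 mice breathed LPS and received 4 mg/kg of human alpha1-antitrypsin (AAT), a plasma inhibitor of neutrophil elastase, by injection into the peritoneum 1 h after each exposure. The protein was native (LPS+nAAT), oxidized (LPS+oxAAT) or recombinant (LPS+recAAT); the treatment text gives saline as the injection without AAT, although no label states it for the air mice, and lungs were collected 6 h after the last dose. No source used here gives the age of the mice.

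A B cell is recognised by the receptor that it carries. Membrane immunoglobulin binds the antigen and passes the signal inward through the CD79A and CD79B chains, the kinase BLK acts beneath the receptor, and CD22 dampens it. MS4A1 (CD20), CR2 (the complement receptor CD21) and FCER2A (CD23, the low-affinity IgE receptor) are surface proteins of mature B cells, PAX5 is the transcription factor that holds cells to the B lineage, and CXCR5 is the chemokine receptor that draws them to follicles, along a gradient of CXCL13. In a healthy lung B cells are a minor resident and circulating population, and in whole-lung RNA fewer B cells and less RNA per B cell cannot be told apart.

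The genes lie on different chromosomes except for Cd22 and Cd79a, both on chromosome 7. In GENCODE M21 (GRCm38) they are all protein-coding: Cd79a at chr7:24897381-24902197 on the plus strand, and, on the minus strand, Cd79b at chr11:106311341-106314762, Blk at chr14:63372836-63417037, Cd22 at chr7:30865402-30880342, Ms4a1 at chr19:11249675-11266241, Cr2 at chr1:195136811-195176716, Fcer2a at chr8:3681737-3694175, Pax5 at chr4:44524757-44710487 and Cxcr5 at chr9:44511787-44561877. The DNA before their start sites is shown as a description, and whether it bears on how the genes varied between mice was not tested. RefSeq promoter windows (GRCm38.p6) matched 5 of the 9 genes, with 7 windows in all, and 1 window per gene is printed 5′ to 3′ along the gene's strand, without bases that GENCODE places in an exon of that gene. Capitals mark matches to a motif. The printed stretches are chr7:30879029-30879176 (minus) for Cd22, chr7:24897247-24897380 (plus) for Cd79a, chr1:195176720-195176969 (minus) for Cr2, chr8:3694176-3694424 (minus) for Fcer2a and chr4:44710695-44710944 (minus) for Pax5.
Cd22: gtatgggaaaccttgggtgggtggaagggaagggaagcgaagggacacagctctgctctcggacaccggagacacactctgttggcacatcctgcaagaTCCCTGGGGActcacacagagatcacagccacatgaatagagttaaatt
Cd79a: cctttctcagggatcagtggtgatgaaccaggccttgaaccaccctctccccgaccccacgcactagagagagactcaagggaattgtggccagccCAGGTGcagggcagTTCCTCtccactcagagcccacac
Cr2: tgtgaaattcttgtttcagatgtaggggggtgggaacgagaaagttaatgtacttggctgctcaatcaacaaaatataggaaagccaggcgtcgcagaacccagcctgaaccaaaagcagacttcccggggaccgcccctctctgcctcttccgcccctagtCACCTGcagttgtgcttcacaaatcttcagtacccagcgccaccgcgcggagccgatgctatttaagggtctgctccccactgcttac
Fcer2a: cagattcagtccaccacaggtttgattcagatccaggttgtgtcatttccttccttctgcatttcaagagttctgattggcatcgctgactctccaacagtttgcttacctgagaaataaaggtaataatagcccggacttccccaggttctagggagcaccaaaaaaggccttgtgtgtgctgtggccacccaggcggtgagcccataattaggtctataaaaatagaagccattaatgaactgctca
Pax5: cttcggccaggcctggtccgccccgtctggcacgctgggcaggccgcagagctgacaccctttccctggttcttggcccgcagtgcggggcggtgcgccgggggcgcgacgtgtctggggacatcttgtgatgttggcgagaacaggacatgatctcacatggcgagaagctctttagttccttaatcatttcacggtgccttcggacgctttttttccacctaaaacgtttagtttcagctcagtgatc

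Motifs were searched on both strands of the 250 bases before each start: the octamer ATGCAAAT bound by OCT factors, an EBF-type motif (TCCC and GGGA with 2 bases between), a PU.1-type motif GAGGAA, the E box CAGGTG and an NF-kB-type motif (GGGAC followed at once by TTTCC). The Cd22 window held the EBF-type motif as TCCCTGGGGA, 49 to 40 bases before the RefSeq start, a motif present in 0.779% of all 32851 windows. Cd79a carried the E box and the PU.1-type motif, which were present in 17.2% and 23.3% of windows, and Cr2 carried the E box. The unprinted end of the Cd22 window and another Fcer2a window held the E box too, while the printed Fcer2a and Pax5 windows held none of the 5 motifs. The octamer and the NF-kB-type motif, present in 1.6% and 0.14% of all windows, were in none of the 7 windows of these genes. A match shows only that the letters are there.

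Depth ran from 14.8 to 47.9 M gene counts per library (median 28.7 M). Markers of lung epithelium and vessels summed to 54800 to 84000 CPM, as the tissue label says. Thymus genes summed to 1.45 to 3.98 CPM, and heart muscle genes varied from 49.3 to 833 CPM within and between groups. There were 2 kinds of library, which no label tells apart. In 15 of them (first set) the mitochondrial gene mt-Nd6, encoded on the other DNA strand than its neighbours, had 0.338% to 1.14% as many counts as mt-Nd5, and in the other 8 (second set) it had 3.39% to 4.5% as many. All 5 LPS+recAAT libraries and LPS+oxAAT replicates 5103, 5104 and 5105 were in the second set, and all others in the first.

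Per kilobase of exon, the receptor chains led. Cd79b averaged 25.4 ± 6.5 CPM per kb over the 23 libraries (SD) and Cd79a 20.7 ± 6.5, with Cd79b above Cd79a in 23 of 23 libraries. Cd22 (9.94 ± 1.51 CPM per kb) and Fcer2a (9.92 ± 2.33) followed and could not be ordered, with Cd22 the higher in 11 of 23 libraries. Blk (3.86 ± 1.15) was above Ms4a1 (3.19 ± 0.753) in 17 of 23. Cxcr5 (1.99 ± 0.546 CPM per kb), Cr2 (0.888 ± 0.205) and Pax5 (0.513 ± 0.22) closed the order, with Cxcr5 above Cr2 in 23 libraries and Cr2 above Pax5 in 22. These levels placed Cd79b at the 88.3rd percentile of the tested genes per kilobase and Pax5 at the 15.3rd. The lowest count behind any value was 46 reads, for Pax5, and the highest 2691, for Cd22.

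**Figure D1:**
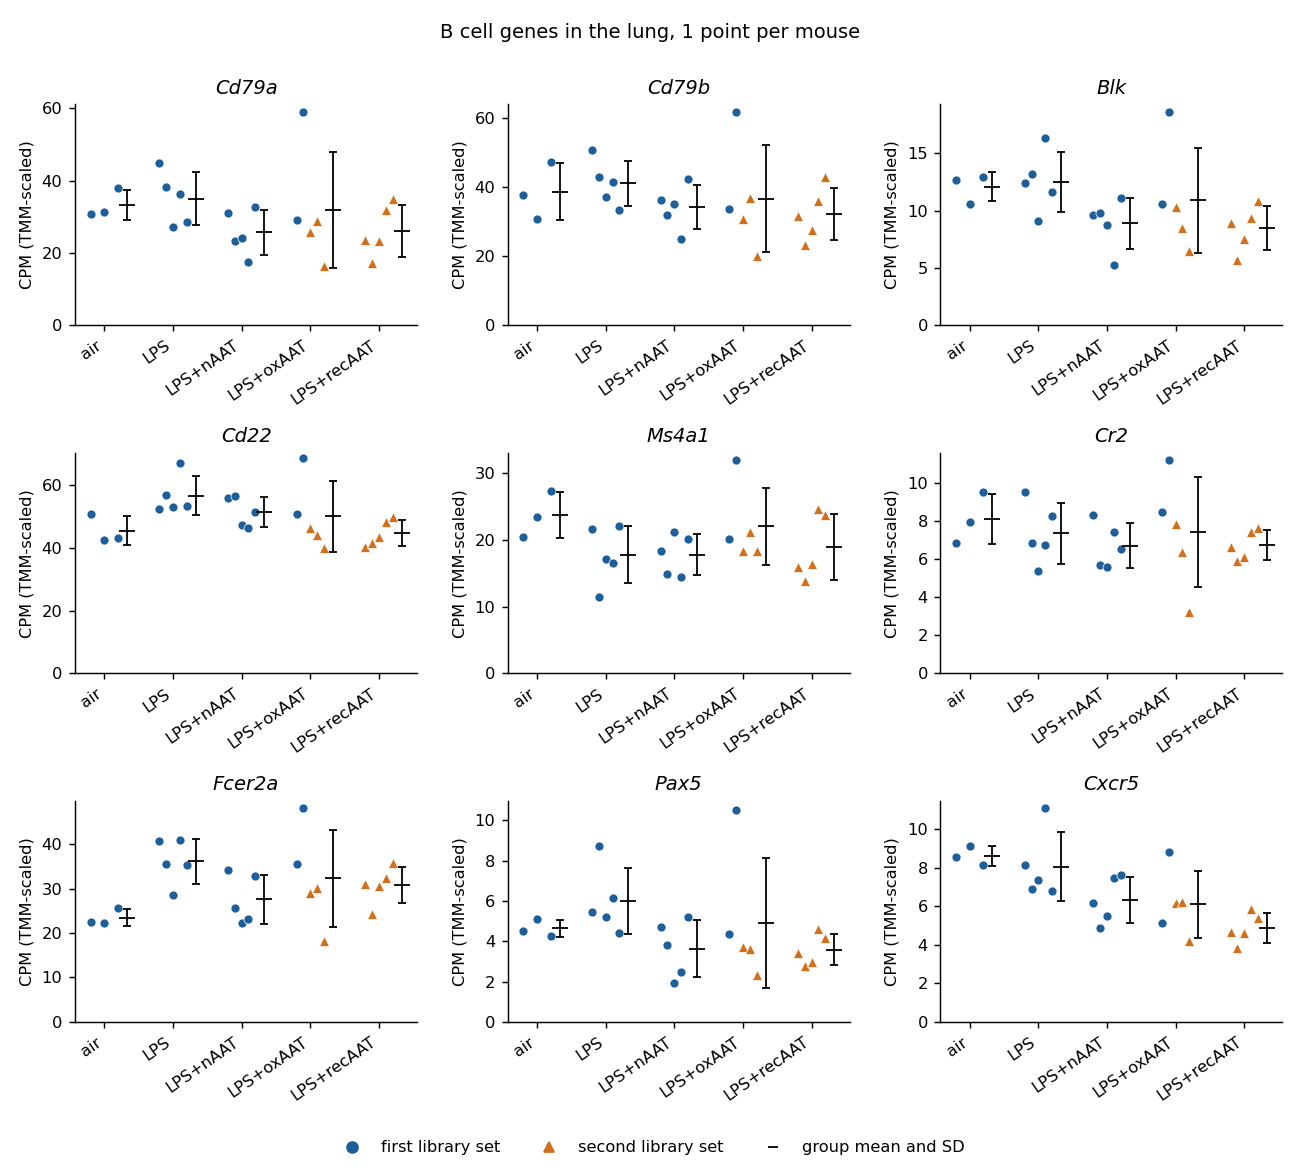
CPM of each gene by group, with the vertical axis from 0, 1 point per mouse, circles for the first library set and triangles for the second, and the group mean with its SD beside the points. Fcer2a was at 22.3 to 25.7 CPM in air and at 28.5 to 41 CPM in LPS, and Cxcr5 was at 3.83 to 5.87 CPM in LPS+recAAT and at 6.79 to 11.1 CPM in LPS.

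LPS against air addresses what repeated inhalation of LPS did to these transcripts. Of the 9 genes, 0 passed an adjusted p of 0.05, while 4.39% of all tested genes did (edgeR's quasi-likelihood F test, Benjamini-Hochberg over all 17148 genes, in this and every comparison below). An unadjusted p under 0.05 was reached by 2 of them, Fcer2a and Cd22, and by 18.1% of all tested genes. The DESeq2 Wald test called 1, Fcer2a, and 6.96% of all genes that it tested. The members' median log2 fold change was 0.07, against -0.01 for all tested genes, with 6 above 0. The receptor chains were at close levels in both groups, and the gene farthest from its air level was Fcer2a.

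Among the receptor genes, Cd79a was at 30.6, 31.3 and 38 CPM in air and at 44.8, 38.1, 27.1, 36.2 and 28.6 CPM in LPS. These ranges overlapped, and the difference was 0.07 ± 0.29 on the log2 scale (SE; adjusted p = 0.934). Cd79b stood at 30.9 to 47.4 CPM in air and 33.5 to 50.8 in LPS (0.09 ± 0.25, 0.899). Blk, the Src-family kinase, was at 10.6 to 12.9 CPM in air and 9.12 to 16.3 in LPS (0.05 ± 0.26, 0.945). The 95% intervals of these 3 differences ran from -0.54 to 0.68 for Cd79a, from -0.43 to 0.60 for Cd79b and from -0.48 to 0.59 for Blk. All 3 intervals held differences of either sign, so a rise or a fall of that size is not excluded.

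Cd22, the inhibitory lectin, was measured at 50.9, 42.7 and 43.2 CPM in air and at 52.5, 56.9, 53.2, 67.2 and 53.5 CPM in LPS. Every LPS mouse was above every air mouse, although the difference missed the threshold (0.31 ± 0.13, adjusted p = 0.205). The other gene whose groups did not overlap was Fcer2a, the IgE receptor, with 22.5, 22.3 and 25.7 CPM in air and 40.7, 35.6, 28.5, 41 and 35.3 CPM in LPS. Its mean went from 23.5 ± 1.9 (SD, n = 3) to 36.2 ± 5.08 CPM (n = 5), 1.54-fold, a log2 difference of 0.63 ± 0.21 (95% interval 0.20 to 1.05, unadjusted p = 0.00589, adjusted p = 0.089). Non-overlapping and higher in LPS were thus 2 of 9 members, against 5.31% of all tested genes. The adjusted p of Fcer2a was 0.0299 when only libraries of the first set were fitted, 0.0272 when only the air and LPS libraries were fitted and 0.0349 with the DESeq2 Wald test. It was 0.0585 to 0.258 when each air or LPS library was left out in turn. Without LPS+oxAAT replicates 5102 and 5105 it was 0.0104. These mice are in neither group and were left out because they stand apart at these genes. Such a choice makes the shared spread smaller, so no conclusion is drawn from that fit.

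On the remaining surface proteins LPS and air overlapped. Ms4a1 was at 20.4, 23.4 and 27.3 CPM in air and at 21.6, 11.5, 17.2, 16.6 and 22 CPM in LPS (-0.41 ± 0.21, adjusted p = 0.314). Cr2 ran from 6.85 to 9.52 CPM in air and from 5.4 to 9.55 in LPS (-0.14 ± 0.25, 0.824). Pax5, the lineage factor, ran from 4.27 to 5.12 CPM in air and from 4.41 to 8.71 in LPS (0.36 ± 0.36, 0.649). The follicle-homing receptor Cxcr5 was at 8.59, 9.15 and 8.13 CPM in air and 8.15, 6.91, 7.37, 11.1 and 6.79 in LPS, overlapping ranges with a difference of -0.09 ± 0.20 (0.862).

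**Figure D2:**
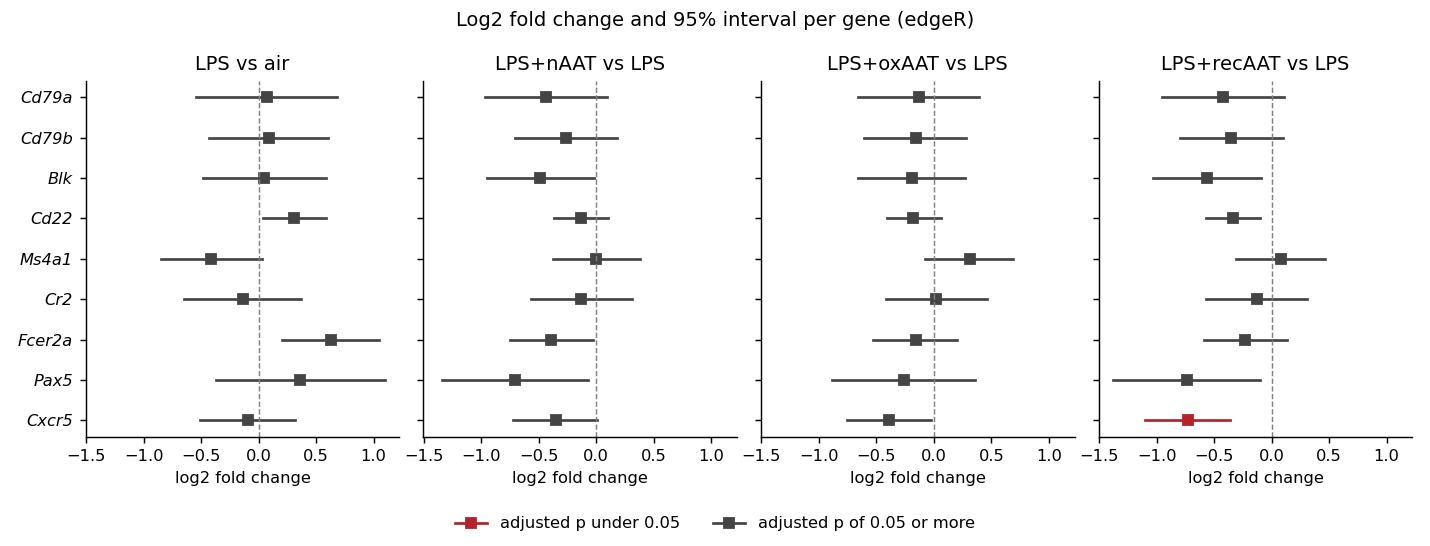
Log2 fold change of each gene with its 95% interval (horizontal axis) in LPS against air and in each AAT group against LPS. Of the 36 intervals drawn, the red one, Cxcr5 in LPS+recAAT against LPS (-0.73, interval -1.10 to -0.36), has an adjusted p under 0.05.

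Each AAT preparation was then set against the same 5 LPS libraries, so these 3 comparisons share their controls and a high or low LPS mouse moves all of them. After native AAT, 0 of 9 genes passed (0.595% of all tested genes passed), 0 by the DESeq2 Wald test (2.93%) and 3 at an unadjusted p under 0.05 (14.7%). All 9 estimates were at or below 0, with a median of -0.35 against 0.00 for all tested genes. Pax5 had 4.69, 3.79, 1.93, 2.47 and 5.22 CPM in LPS+nAAT against 5.47, 8.71, 5.22, 6.14 and 4.41 in LPS, with overlap through the highest LPS+nAAT mice and the lowest LPS mouse (-0.71 ± 0.31, adjusted p = 0.283). Blk (8.89 ± 2.21 against 12.5 ± 2.6 CPM, SD, n = 5 each, -0.49 ± 0.23, 0.319) and Fcer2a (27.6 ± 5.53 against 36.2 ± 5.08 CPM, -0.39 ± 0.18, 0.303) were the other members with an unadjusted p under 0.05. Every member overlapped LPS, where 1.05% of tested genes were lower with no overlap.

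Oxidized AAT gave 0 calls among the 9 (4.71% of all tested genes), 0 by the DESeq2 Wald test (7.88%) and 1 at an unadjusted p under 0.05 (20.2%), and the median estimate was -0.16, against -0.01 for all tested genes. Cxcr5 had the smallest p, at 5.16, 8.83, 6.17, 6.25 and 4.18 CPM against the LPS values above (-0.39 ± 0.18, adjusted p = 0.209). Ms4a1 had the highest estimate, with 20.2, 32, 18.3, 21.1 and 18.3 CPM (0.31 ± 0.19, 0.364). One mouse, replicate 5102, was the highest of its group at all 9 genes. Without it, 2 of 9 passed as lower than LPS, Cd22 (-0.31, adjusted p = 0.0397) and Cxcr5 (-0.56, 0.0354), and 11% of all tested genes passed. Leaving out the highest mouse lowers the group's estimate at each of these genes, so no conclusion is drawn from these calls. With replicate 5105, the lowest at 8 of 9 genes, left out as well, 0 of 9 passed, where 6.74% of all tested genes did.

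Recombinant AAT was the preparation with a called gene. Cxcr5 fell: its mean was 8.07 ± 1.79 CPM under LPS alone and 4.88 ± 0.789 CPM under LPS+recAAT (SD, n = 5 each). All LPS+recAAT libraries are of the second set and all LPS libraries of the first, and with the set in the model the call was lost (-0.38 ± 0.31, adjusted p = 0.832). The 5 LPS+recAAT mice had 4.68, 3.83, 4.62, 5.87 and 5.42 CPM, all under the lowest LPS mouse at 6.79. The log2 difference was -0.73 ± 0.18 (95% interval -1.10 to -0.36, adjusted p = 0.0119), 0.603 of the LPS level. This was 1 of 9 members, where 8.49% of all tested genes passed and 2.02% passed as lower. The DESeq2 Wald test called 2, Cxcr5 and Cd22, and 11.8% of its genes, and 4 members reached an unadjusted p under 0.05 where 23.7% of tested genes did.

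Cd22 was the other member whose groups did not overlap, at 40.5, 41.7, 43.7, 48.3 and 50 CPM in LPS+recAAT, but its difference of -0.34 ± 0.11 had an adjusted p of 0.0672. Of all tested genes, 1.98% were lower with no overlap. Pax5 (3.58 ± 0.779 against 5.99 ± 1.64 CPM, -0.74 ± 0.31, adjusted p = 0.142) and Blk (8.44 ± 1.92 against 12.5 ± 2.6 CPM, -0.56 ± 0.23, 0.127) overlapped LPS by a mouse or more. The remaining members lay between -0.42 (Cd79a, 0.329) and 0.08 (Ms4a1, 0.853). Leaving out each LPS or LPS+recAAT library in turn moved Cxcr5 between -0.81 and -0.59; its adjusted p was 0.055 without LPS replicate 1104, the highest LPS mouse at this gene, and 0.00723 to 0.0377 without any other library. Without LPS+oxAAT replicates 5102 and 5105, which stand apart at these genes, the shared spread was smaller and 4 members passed (Pax5, Blk, Cd22 and Cxcr5), where 9.98% of tested genes did.

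Against air, Cxcr5 fell in LPS+recAAT too (-0.83 ± 0.20, adjusted p = 0.0109), 1 of 9 where 6.83% of all tested genes passed, with all 5 mice below the lowest air mouse at 8.13 CPM, as were 7.04% of tested genes in that comparison. The call was lost without air replicate 2102 (adjusted p = 0.0548) and with the set in the model (-0.48 ± 0.32, 0.522). LPS+nAAT and LPS+oxAAT gave 0 of 9 against air (5.62% and 3.76% of tested genes passed), and 0 of 9 by the DESeq2 Wald test (6.87% and 4.57%). An unadjusted p under 0.05 was reached by 1 member in LPS+nAAT (16.8% of tested genes) and 2 in LPS+oxAAT (14.5%). In LPS+nAAT the 5 Cxcr5 values, 6.18, 4.9, 5.49, 7.46 and 7.65 CPM, were also all below the air mice, as were 6.24% of tested genes in that comparison, but the difference of -0.45 ± 0.20 had an adjusted p of 0.25. LPS+oxAAT overlapped air through replicate 5102 (-0.49 ± 0.20, 0.235).

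Set directly against each other, the 3 preparations gave 0 of 9 called genes in each comparison (0.344% of tested genes passed for LPS+oxAAT against LPS+nAAT, 1.93% for LPS+recAAT against LPS+nAAT and 0.0175% for LPS+recAAT against LPS+oxAAT). An unadjusted p under 0.05 was reached by 1 member for recombinant against native AAT, Cxcr5 (14.9% of tested genes), by 0 for oxidized against native (11.8%) and by 0 for recombinant against oxidized (2.9%). The DESeq2 Wald test called 0 of 9 in these comparisons too, and 1.29%, 2.97% and 0.0471% of its genes, oxidized against native first and recombinant against oxidized last. For Cxcr5 the 95% interval ran from -0.75 to -0.01 for recombinant against native AAT (-0.38 ± 0.18, adjusted p = 0.329), from -0.71 to 0.04 for recombinant against oxidized (-0.34 ± 0.18, 1) and from -0.41 to 0.33 for oxidized against native (-0.04 ± 0.18, 0.96). The fall under recombinant AAT was therefore not shown to differ from the values under the other preparations. These estimates moved with the library set: all LPS+nAAT libraries are in the first set and all LPS+recAAT libraries in the second. With the set in the model, recombinant against native AAT went from -0.04 ± 0.31 to 1.18 ± 0.44 for Pax5 (adjusted p = 0.324), from 0.02 to 0.92 ± 0.38 for Cd79a (0.349) and from -0.38 to -0.03 ± 0.31 for Cxcr5 (0.981). In that fit 0 of 9 were called for oxidized or recombinant against native AAT (0.00583% and 0% of tested genes). An unadjusted p under 0.05 was reached there by 6 of 9 for oxidized against native (8.07% of tested genes) and by 5 of 9 for recombinant against native (12.2%), all with higher estimates than under native AAT. In that fit the set effect comes from LPS+oxAAT alone, with 2 of its libraries in the first set. Replicate 5102, the highest of its group at all 9 genes, is among these 2. How far these counts rest on that mouse was not tested.

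The library set moved with these differences. All LPS libraries were in the first set and all LPS+recAAT libraries in the second, so the sets and this comparison can be parted through LPS+oxAAT alone, which has 2 libraries in the first set and 3 in the second. Within LPS+oxAAT the second set was lower at 9 of 9 members, for example 23.6 against 44 CPM (means) for Cd79a, 3.23 against 7.45 for Pax5 and 5.53 against 6.99 for Cxcr5. The first-set mean includes replicate 5102 and the second-set mean replicate 5105, the highest and the lowest mouse at most members.

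When the model also held a term for the set, the second set was estimated at -0.35 (Cxcr5) to -1.22 (Pax5) relative to the first. No member's set effect passed an adjusted p of 0.05, while 93 of all tested genes did. Unadjusted p of the F test was 0.00237 for Fcer2a, 0.00242 for Pax5, 0.00249 for Cd22 and 0.00831 for Blk. It was 0.00833 for Cd79a, 0.00925 for Cr2, 0.016 for Cd79b, 0.0896 for Ms4a1 and 0.175 for Cxcr5. In LPS+recAAT against LPS, where the Cxcr5 call was lost, 0% of tested genes passed in that fit, and 7 other members turned from below to above 0. In that fit against air 1 member was called in LPS+recAAT, where 1.62% of tested genes passed, but it was Fcer2a (1.09 ± 0.27, adjusted p = 0.0318), higher, and not Cxcr5. For LPS+recAAT the treatment and the library set cannot be told apart other than through this fit. Fcer2a in LPS against air, where both groups are in the first set, was 0.63 ± 0.17 in the same fit (adjusted p = 0.0312; 5.37% of tested genes passed).

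**Figure D3:**
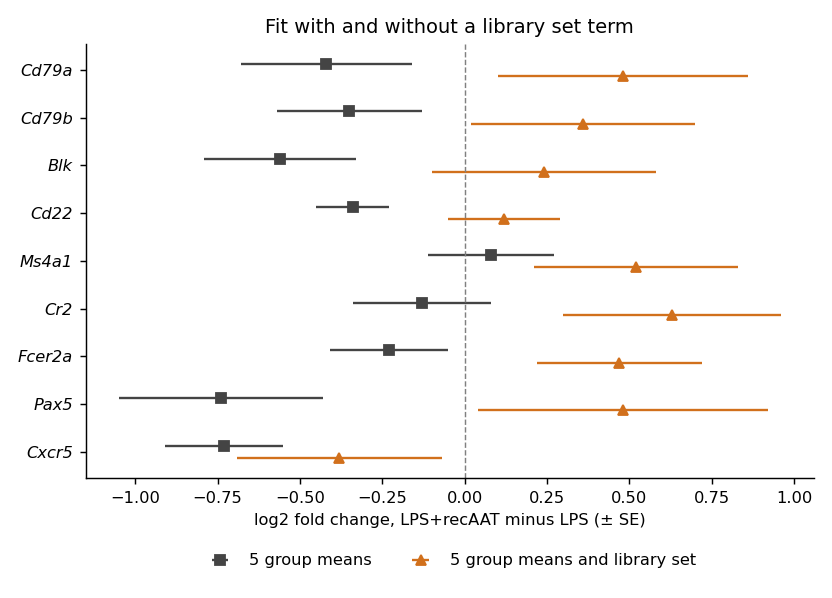
Log2 fold change of LPS+recAAT against LPS with its SE (horizontal axis) per gene, from the model of 5 group means (squares) and from the model with the library set added (triangles). Cxcr5 goes from -0.73 to -0.38, and Cd79a from -0.42 to 0.48.

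A transcript that overlaps a neighbour on the other strand can take up its reads, and no source used here gives the strand setting of the counting. The exons of Cxcr5 share 110 bases with Bcl9l on the opposite strand. Bcl9l, at 85.9 to 134 CPM, differed between LPS+recAAT and LPS by -0.08 ± 0.12 (adjusted p = 0.709). Cd22 overlaps Gm29439 over 479 bases, which had at most 0.135 CPM and 5 counts. Gm29439 averaged 0.00279 CPM in the first library set and 0.0696 CPM in the second, and what this means for Cd22 was not tested. Pax5 overlaps Gm12462 over 125 bases, which had 0 counts in every library. Pax5 also overlaps 5730488B01Rik on the opposite strand, over 636 bases, and that gene was not analysed here.

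The spread between mice within a group was wide for most members and shared between them. Standard deviations of log2 CPM within groups were 0.186 for Cd22 and between 0.288 (Cxcr5) and 0.52 (Pax5) for the others, against a median of 0.218 over all tested genes. In LPS+oxAAT, replicate 5102 was highest at 9 of 9 genes, with Cd79a at 58.9 CPM, Cd79b at 61.9, Blk at 18.6, Cr2 at 11.2 and Pax5 at 10.5 CPM. Replicate 5105 of the same group was lowest at 8 of 9, with Cd79a at 16.3 CPM, Cd79b at 20.1, Blk at 6.45, Cr2 at 3.24 and Pax5 at 2.33 CPM. The 9 genes summed to 319 CPM in the first mouse and 129 CPM in the second, the widest range of any group. In LPS+recAAT, replicate 6102 was lowest at 8 of 9 genes, and replicates 6104 and 6105 were above their group's mean at all 9.

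**Figure D4:**
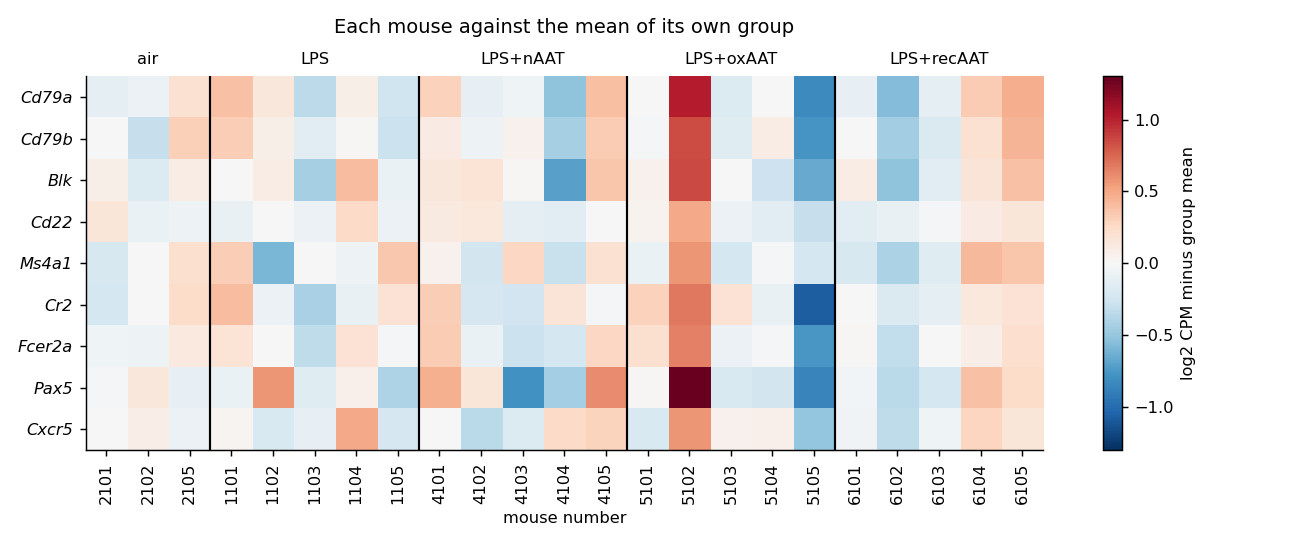
Log2 CPM of each gene (rows) in each mouse (columns, by mouse number) minus the mean of its group, red above and blue below. Replicate 5102 is above its group mean at all 9 genes by 0.49 to 1.28 and replicate 5105 below it at all 9 by 0.23 to 1.07, and columns tend to hold 1 colour.

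Genes of other lymphocytes were also high and low in these 2 mice. T cell genes summed to 204 CPM in replicate 5102 and 119 CPM in replicate 5105, the ends of their LPS+oxAAT range, while the median over 18 T cell genes of the correlation with the members' mean was 0.559. NK cell genes summed to 82.9 and 61.5 CPM in these mice, also the ends of the range. Of the stromal and high endothelial genes of lymphoid tissue, 4 had counts at or near 0: Ccl19 had 0 counts in all libraries, Ccl21a and Glycam1 at most 2 and Madcam1 at most 5. Reads that did not map uniquely were not counted, and whether this lowered any of these counts was not tested. Others had higher counts: Cxcl12 averaged 322 CPM in air and 331 CPM in LPS, and Chst4, a sulfotransferase of high endothelial cells, 0.892 ± 0.263 and 1.81 ± 0.672 CPM (SD; 1.03 ± 0.38, adjusted p = 0.138). The part of T and NK cells in these differences was not tested.

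After group means were removed, Pearson's r of log2 CPM over the 23 libraries was above 0 for all 36 pairs of members, from 0.30 to 0.96 with a median of 0.68. By permutation, 34 pairs passed an adjusted p of 0.05, and 26 did by Spearman's rho (0.25 to 0.94, median 0.55). Cd79a and Cd79b, the 2 chains of one receptor complex, were closest at r = 0.96 (rho = 0.94; permutation p = 1e-05, the smallest the 100000 permutations can give), and 0.92 without the 2 libraries farthest from the median. Ms4a1 was the loosest member, with a median r of 0.51 to the others and 0.30 with Pax5. Without the 2 farthest libraries of each pair the median r was 0.48 and the lowest 0.00 (Cr2 with Cd22, 0.51 over all libraries); leaving out the farthest libraries narrows the range, which by itself can lower r. Libraries share depth and composition, which these correlations do not remove. The library set, which differs within LPS+oxAAT, was not removed either.

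**Figure D5:**
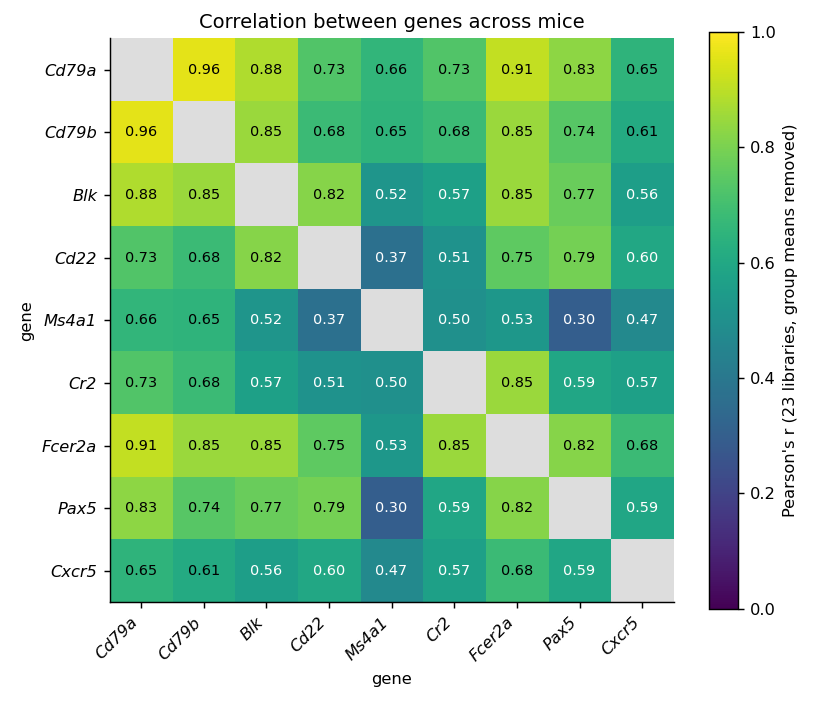
Pearson's r between each pair of genes over the 23 libraries after subtracting group means, coloured from 0 to 1. The row of Cd79a runs from 0.65 to 0.96 and that of Ms4a1 from 0.30 to 0.66.

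The genes most like the members were sought among all tested genes by their correlation with the members' mean standardised log2 CPM, over 23 libraries with group means removed. Fcmr, the Fc receptor for IgM, came first (r = 0.965). Others among the 12 most alike were Haao (0.934), Fcrl1 (0.913), Sept1 (0.905), H2-DMb2 (0.899), Bank1 (0.897), Spib (0.883), Cd37 (0.871), Mri1 (0.871), Tbc1d10c (0.869) and Lrmp (0.853). The median over all 17148 tested genes was 0.0295. Here too the library set was not removed. Of the 50 genes most alike, 12 belonged to a list of 20 other B cell genes, 3 were immunoglobulin or T cell receptor segments and 1 was a T cell gene.

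Further B cell genes were read from fixed lists. The shares of all tested genes to set beside every list below were, at an adjusted p under 0.05, 4.39% in LPS against air. Against LPS they were 0.595% (native), 4.71% (oxidized) and 8.49% (recombinant). At an unadjusted p under 0.05 they were 18.1%, 14.7%, 20.2% and 23.7% in the same order. The DESeq2 Wald test called 6.96%, 2.93%, 7.88% and 11.8% of its genes. Of the 20 other B cell genes, 0 were called in LPS against air and in each AAT group against LPS, by edgeR or by the DESeq2 Wald test, with medians of -0.08, -0.16 (native), -0.04 (oxidized) and -0.18 (recombinant). An unadjusted p under 0.05 was reached by 1 of them after LPS, 0 with native or oxidized AAT and 1 with recombinant AAT. Of 20 genes of B cell receptor signalling, many of which other leukocytes also use, 2 rose after LPS (median 0.11): Syk, the kinase recruited to the CD79 chains, from 80.3 ± 12.1 to 119 ± 8.91 CPM (0.57 ± 0.11, adjusted p = 0.00134), and Vav1, a guanine nucleotide exchange factor (0.50 ± 0.12, 0.00986). In LPS+recAAT against LPS 2 of the 20 fell (median -0.14), among them Plcg2, which encodes a phospholipase (-0.37 ± 0.11, adjusted p = 0.0402). When each LPS or LPS+recAAT library was left out in turn, Plcg2 lost the call in 7 of 10 fits, with an adjusted p of up to 0.116 (without LPS+recAAT replicate 6101). Vav1 lost it without air replicate 2102 (0.0563). With native and oxidized AAT 0 of the 20 were called (4 and 3 at an unadjusted p under 0.05), and the DESeq2 Wald test called 1, Inpp5d, with native AAT and 0 with oxidized AAT.

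Immunoglobulin constant region genes had 8 tested members, all with estimates below 0 in LPS+recAAT against LPS (median -0.62, against -0.01 for all tested genes). Of these, 2 were called as lower, as were 2.02% of all tested genes. Ighm, the mu heavy chain, went from 162 ± 38.3 to 96.5 ± 30.6 CPM (-0.75 ± 0.22, adjusted p = 0.0328), and Ighg2b fell too (-1.08 ± 0.33, 0.0445). In 10 fits that left out 1 LPS or LPS+recAAT library each, Ighm lost the call in 6 (adjusted p up to 0.104, without LPS replicate 1101) and Ighg2b in 8 (up to 0.11, also without 1101). LPS+oxAAT against LPS had all 8 below 0 as well (median -0.33) and 0 called, with 3 at an unadjusted p under 0.05 (20.2% of tested genes). After LPS (median -0.14) or native AAT (median -0.20) 0 were called and 0 had an unadjusted p under 0.05, and the DESeq2 Wald test called 0 in these 3 comparisons. Constant region genes are near-identical in stretches, so the split of reads between isotypes is uncertain.

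Among 13 plasma cell genes 1 was called, Prdm1, which encodes the plasma cell factor BLIMP1 and is also expressed by T cells and macrophages. It rose in LPS+oxAAT (0.70 ± 0.12, adjusted p = 0.00311) and LPS+recAAT (0.61 ± 0.12, 0.00312) against LPS, while the other 12 genes were not called and the list's medians were 0.06 and -0.04. After LPS and with native AAT 0 of the 13 were called by edgeR or DESeq2, with 3 and 1 at an unadjusted p under 0.05. Germinal centre genes had 7 of 12 tested. Basp1 rose after LPS (0.59 ± 0.17, 0.0378; list median -0.04), and Fas (0.45 ± 0.09, 0.00268) and Mybl1 (1.42 ± 0.33, 0.00764) rose in LPS+recAAT against LPS (list median 0.31), genes that other cells of the lung also express. Basp1 lost its call in 5 of 8 fits without 1 air or LPS library, with adjusted p up to 0.184 (without air replicate 2102). With native and oxidized AAT 0 of the 7 were called (1 and 2 at an unadjusted p under 0.05), and DESeq2 called 1, Fas, with native AAT and 0 with oxidized AAT. With the library set in the model, no list gene called here in LPS+oxAAT or LPS+recAAT against LPS kept an adjusted p under 0.05. The estimates for Prdm1 were 0.71 ± 0.16 (oxidized) and 0.63 ± 0.21 (recombinant), with larger standard errors than before. Other estimates in LPS+recAAT were smaller in size than before: Ighm -0.15 ± 0.35, Ighg2b -0.84 ± 0.59, Plcg2 -0.24 ± 0.20, Fas 0.21 ± 0.15 and Mybl1 0.81 ± 0.55. In the same fit Syk, Vav1 and Basp1 in LPS against air passed.

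The niche that guides and feeds B cells was measured by 13 tested genes. Clu, a chaperone made by many lung cells, rose after LPS (0.97 ± 0.11, adjusted p = 4.63e-06; list median 0.04), and 0 were called in the AAT groups against LPS by edgeR or DESeq2, with 1 (native), 2 (oxidized) and 3 (recombinant) at an unadjusted p under 0.05. Cxcl13, the ligand of CXCR5, was at 10.1 ± 5.06 CPM in LPS against 6.66 ± 2.04 in air (0.60 ± 0.33, 0.35). Tnfsf13b, the survival factor BAFF, was at 11.6 ± 1.56 against 9.14 ± 1.39 CPM (0.34 ± 0.15, 0.205).

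Lists of other cell types gave the surroundings. T cell genes had 0 of 18 called after LPS (median -0.02; 4 at an unadjusted p under 0.05, 0 by DESeq2) and 1 of 18, Bcl11b, higher in LPS+oxAAT (0.82 ± 0.23, adjusted p = 0.0416) and in LPS+recAAT (0.87 ± 0.23, 0.0199) against LPS. Leaving out 1 library ended these calls in 5 and 4 of 10 fits, for example without LPS replicate 1102 (adjusted p = 0.136 and 0.0628). With native AAT 0 of 18 were called by edgeR or DESeq2, and 1 had an unadjusted p under 0.05. Of 10 conventional dendritic cell genes, 3 rose after LPS: Ccl22 (1.33 ± 0.16, 5.52e-06), Ccl17 (1.71 ± 0.24, 5.85e-05) and Itgax (1.04 ± 0.13, 6.27e-06). The other genes of that list were not called, with estimates from -0.10 (Clec9a) to 0.34 (Batf3). The list summed to 169 to 199 CPM in air and 265 to 285 CPM in LPS, of which Itgax averaged 70.6 and 145 CPM. Of 15 lung genes, 2 rose after LPS, Sftpd (1.03 ± 0.11, 1.92e-06) and Car4 (0.72 ± 0.11, 9.32e-05). In the AAT groups against LPS both lists had 0 called, with 0, 1 and 3 dendritic cell genes and 2, 3 and 3 lung genes at an unadjusted p under 0.05 for native, oxidized and recombinant AAT. The DESeq2 Wald test called Flt3 (recombinant), Cldn18 (native and oxidized) and Napsa (recombinant) among them. NK cell, plasmacytoid dendritic cell, thymus and heart muscle genes had 0 called in LPS against air and in each AAT group against LPS, by edgeR or DESeq2, with at most 2 of a list at an unadjusted p under 0.05.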

How the data were processed

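RNA-seq of whole lung was analysed in 23 mice of 5 groups, taken from the sample titles. The authors deposited 1 table of read counts per Ensembl gene, unnormalised whole numbers, 1 column per mouse. Libraries were poly(A)-selected with a stranded TruSeq kit, per the labels' protocols, and the submitters' processing notes name FastQC 0.11.8, Trimmomatic 0.38 and 0.36, STAR 2.4.0.1, HTSeq 0.11.1 and GRCm38. For the counting, the strand setting and annotation release were not given in the sources used here. Left out were the 5 summary lines (reads in no gene were 6.79% to 13.1% of a column), and 40254 of 41388 IDs carried a GENCODE M21 symbol.

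Counts were fitted in edgeR 4.0.16 (R 4.3.3) with filterByExpr, TMM factors (0.978 to 1.03), 1 mean per group and robust quasi-likelihood dispersions. The 2-sided F test was adjusted by Benjamini-Hochberg over 17148 genes, with a threshold of 0.05. Standard errors were derived from each gene's F statistic, and 95% intervals also from the total (residual and prior) degrees of freedom of its test. The fit was tested on simulated data. CPM values in the text are TMM-scaled. Correlations used log2 CPM with a prior count of 2. Nothing in the labels says how the mice were housed or prepared in batches, so the p-values reflect only how far these mice spread.

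All 9 genes are named in the main comparisons. Of each other list at most 4 called genes of smallest adjusted p are named, or at most 2 uncalled ones as values. As most alike, the 12 genes of largest r were taken, without predicted genes and receptor segments. Some genes that these rules name are not reported here. Cxcl13, Cxcl12, Chst4, Tnfsf13b and the genes that DESeq2 called were also named after their values were seen. The genes and lists were chosen with earlier results of these data known.

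Alternatives were DESeq2 1.42.0 (Wald test, or its size factors in edgeR), library totals, no filter or a stricter one (CPM of 1 or more in 5 or more libraries), only the groups compared, a replicate block, the library set split at an mt-Nd6 count of 2% of mt-Nd5 as a term, the first set only, a threshold of 0.01 and each library left out. Leaving out LPS+oxAAT replicates 5102 and 5105 was chosen after seeing the data.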

Additional observations from a re-analysis of the deposited data

Results flagged for a closer look

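In LPS+oxAAT, replicate 5102 had Ms4a1 at 32 CPM, while the nearest mouse of its group had 21.1 CPM. The same mouse had Pax5 at 10.5 CPM, and the nearest mouse of its group had 4.36 CPM. Each gap was larger, as a share of the group's range, than Dixon's 95% critical value of 0.71 for 5 samples. The 9 genes were examined in the 4 groups of 5 mice, 36 groups of values in all, and chance passes this limit in about 1 of 20 groups.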

How the results depend on the processing

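The counts of called genes among the 9 stayed the same with DESeq2 size factors, library totals, no filter or the stricter filter. For LPS against air the count went from 0 to 1, Fcer2a, with the library set as a term (5.37% of tested genes passed) or the first set only. It did so too with the compared groups only (2.15%), the DESeq2 Wald test (6.96%) or without LPS+oxAAT 5102 and 5105 (4.95%). For LPS+oxAAT against air it went from 0 to 1 with the set term (1.96%) or the first set only. For LPS+recAAT against LPS it went from 1 to 0 with the set term (0%) or a threshold of 0.01. There it went to 2 with the DESeq2 Wald test (11.8%), to 3 with the compared groups only (6.76%) and to 4 without LPS+oxAAT 5102 and 5105 (9.98%). Against air LPS+recAAT went from 1 to 0 at the threshold of 0.01. Leaving out 1 library of the groups compared gave 0 to 2 for LPS+oxAAT and for LPS+recAAT against LPS, 0 to 1 for LPS+recAAT against air and 0 to 0 in the other comparisons. Through the shared spread, leaving out LPS+oxAAT 5102 gave 3 for LPS+recAAT against LPS (10.3% of tested genes) and 1 for LPS against air (4.89%). Shares for the other settings of this paragraph are not reported here. The median pair correlation went from 0.68 to 0.48 without the 2 farthest libraries. Other than where fewer samples were fitted, the cause was not tested.

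With the set term, estimates against LPS turned above 0 for Cd79a (0.34), Cd79b (0.22), Fcer2a (0.21), Pax5 (0.33), Blk (0.23) and Cd22 (0.08) in LPS+oxAAT, and for Cd79a (0.48), Cd79b (0.36), Cr2 (0.63), Fcer2a (0.47), Pax5 (0.48), Blk (0.24) and Cd22 (0.12) in LPS+recAAT. With the first set only, those of LPS+oxAAT were 0.33, 0.22, 0.21, 0.33, 0.23 and 0.08 in the same order. Leaving out 1 library of the groups compared changed the sign of small estimates only: against air, LPS gave Cd79a -0.04 to 0.18, Cd79b -0.05 to 0.26 and Blk -0.06 to 0.15, and against LPS, Ms4a1 ran from -0.12 to 0.08 (native) and -0.04 to 0.17 (recombinant), Cd79a from -0.48 to 0.03 and Cr2 from -0.17 to 0.21 (oxidized).

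The last digit of the mouse number was not shown to pair the mice. The 42 same-digit pairs correlated at -0.35 to 0.32 (median 0.04) and the 168 other pairs at -0.42 to 0.37 (median -0.02). Of 23 libraries, 5 correlated best with their own digit. These correlations cannot exclude that mice of the same digit were handled together. With the last digit as a replicate block Cxcr5 was -0.71 in LPS+recAAT against LPS (adjusted p = 0.0114), the same 1 of 9 was called there and against air, and 0 in the other comparisons. Ms4a1 in LPS+nAAT against LPS was 0.01. Ighm (0.0512) and, in LPS+oxAAT, Bcl11b (0.0527) missed the threshold under the block, and Ighm (0.0735) and Plcg2 (0.0598) without a filter. Calls over all tested genes, with the block, the set term, the DESeq2 Wald test and the compared groups only, were 753 against 1364, 921, 1114 and 354 for LPS, 102 against 248, 196, 440 and 16 for LPS+nAAT, 808 against 1167, 6, 1260 and 15 for LPS+oxAAT and 1456 against 1850, 0, 1948 and 1097 for LPS+recAAT.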
